A study of Homo sapiens with 6 samples.

Results

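KITLG, NRP1 and NRCAM are 3 genes of secreted or cell-surface signalling proteins that stood far higher in Caco-2 cells carrying hairpins against FAM46A than in their controls. The genes were taken by symbol and are represented by 3 probe sets, 1 each, of the 48144 probe sets on the array, or 3 of 14884 named genes. They were chosen by their array values, as genes with both hairpins far above the control, so their levels against the control are described without a test. Caco-2, an established line from a human colon carcinoma, grows as an epithelial sheet and takes on features of enterocytes when left confluent. Subconfluent cells were infected with lentivirus carrying a short hairpin RNA (shRNA) and sampled 17 days later. The control group received a scramble shRNA, and the other groups received FAM46A-shRNA#2 or FAM46A-shRNA#4, which are different hairpins directed against FAM46A, a non-canonical poly(A) polymerase gene. Each of the 3 groups held 2 arrays, labelled biological replicates of this 1 cell line, and all 6 samples carried lentivirus. The labels do not say how the replicates were separated, so the p-values reflect the spread among these arrays alone, which may be technical. The level of FAM46A was not analysed here, and the groups follow the labels alone.

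KITLG (stem cell factor) is made as a membrane protein and can be released by proteolytic cleavage of its ectodomain. It activates the receptor tyrosine kinase KIT, which supports blood progenitors, mast cells, melanocytes, germ cells and the interstitial cells that pace gut movement. NRP1 is a co-receptor without kinase activity of its own. It pairs with A-type plexins to receive class 3 semaphorins, which steer growing axons, and with VEGF receptors on endothelium. NRCAM is an immunoglobulin-domain adhesion molecule of the L1 family, with L1CAM, CHL1 and NFASC, and its cytoplasmic tail binds ankyrins.

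Because KITLG and NRCAM stood high on the same arrays, the 250 bases before their annotated starts are shown, from RefSeq sequences of GRCh38.p14. KITLG lies on the minus strand (chr12:88580472-88580721) with 1 start in the table, and NRCAM on the minus strand (chr7:108456437-108456686), the outermost of 3 starts. NRP1 had no matching entry. Capitals mark matches, on either strand, to the GC box letters GGGCGG or the TATA box letters TATAAA.
KITLG: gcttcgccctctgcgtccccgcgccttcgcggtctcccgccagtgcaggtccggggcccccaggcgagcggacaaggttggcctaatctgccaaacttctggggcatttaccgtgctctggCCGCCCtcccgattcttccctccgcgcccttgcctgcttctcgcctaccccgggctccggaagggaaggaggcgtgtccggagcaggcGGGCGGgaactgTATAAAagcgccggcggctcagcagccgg
NRCAM: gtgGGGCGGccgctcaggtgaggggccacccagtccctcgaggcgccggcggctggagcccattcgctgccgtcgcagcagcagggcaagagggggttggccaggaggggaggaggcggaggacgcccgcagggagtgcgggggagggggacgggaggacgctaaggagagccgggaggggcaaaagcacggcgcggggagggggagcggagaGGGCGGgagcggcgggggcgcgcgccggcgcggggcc
Both windows held 2 GC box matches. In KITLG they began 129 and 41 bases before the start, and in NRCAM 247 and 37 bases before it. GGGCGG occurred in 42.3% of the 27305 promoters of this length in the table, and in 57.8% of the 10749 that belong to measured genes. KITLG also held a TATAAA match 29 bases before the start, and this motif occurred in 11.1% of all promoters. The GC content was 69.2% for KITLG and 78.4% for the outermost NRCAM start, against a median of 58.0% over all promoters. The inner NRCAM starts were poorer in GC, at 42.4% and 33.2%, and the array does not tell which start was in use. The other motifs, searched on both strands, were the letters CCAAT of the CCAAT box, the letters TGACG of the cyclic AMP response element, the letters TGANTCA of the AP-1 site, the letters CACGTG of the E-box, the letters CTTTGAT of the TCF/LEF site and the letters GGAATG of the TEAD site. None of these matched in either printed window, and between 2.28% and 33.0% of all promoters held each of them. In the inner NRCAM windows, not printed, the CCAAT box matched once in each. The innermost also held 1 match of the AP-1 site and 2 matches of the letters TGACG. These 2 overlap on opposite strands, within the letters TGACGTCA. These matches describe letters in the windows only.

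Each deposited value is on a log2 scale and is set against the probe set's own median across 6 arrays. When 2 of the 6 arrays are low, that median falls among the other 4, so hairpin values lie near 0 by construction and the scramble arrays carry the difference. The absolute level of a gene is not in these values, so neither its detection nor the identity of the cells by marker level was assessed. The sources used here state no log base, and base 2 was assumed.

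KITLG (Entrez 4254, probe set 16768270) read -2.65 and -2.14 on the scramble arrays. It read 0.14 and 0.21 with shRNA#2 and 0.17 and -0.14 with shRNA#4. All 4 hairpin arrays lay above both scramble arrays, by at least 2.00. The first scramble value was the lowest of any probe set on any array in the whole table. The group means were -2.39 ± 0.36 (SD, n = 2) for scramble, 0.17 ± 0.051 (SD, n = 2) for shRNA#2 and 0.016 ± 0.21 (SD, n = 2) for shRNA#4. The difference from scramble was 2.56 with shRNA#2 (5.91-fold) and 2.41 with shRNA#4 (5.31-fold), and the mean of both hairpins stood 5.60-fold above scramble.

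NRP1 (Entrez 8829, probe set 16713187) read -1.36 and -1.25 on the scramble arrays, 0.16 and -0.16 with shRNA#2, and 0.41 and 0.26 with shRNA#4. The hairpin arrays again lay above both scramble arrays, by at least 1.09, and both shRNA#4 arrays lay above both shRNA#2 arrays. The share of all genes without overlap between the hairpin groups was not counted. The group means were -1.31 ± 0.082 (SD, n = 2) for scramble, 0 ± 0.22 (SD, n = 2) for shRNA#2 and 0.33 ± 0.10 (SD, n = 2) for shRNA#4. These means put NRP1 2.47-fold above scramble with shRNA#2 and 3.12-fold above it with shRNA#4. The shRNA#2 mean of 0 follows from the centring, since its 2 arrays were the lowest hairpin arrays.

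NRCAM (Entrez 4897, probe set 17061759) read -1.69 and -1.39 on the scramble arrays, -0.063 and 0.081 with shRNA#2, and 0.10 and 0.063 with shRNA#4. The lowest hairpin array lay 1.33 above the highest scramble array, and the ranges of the hairpin groups overlapped. The group means were -1.54 ± 0.21 (SD, n = 2) for scramble, 0.0088 ± 0.10 (SD, n = 2) for shRNA#2 and 0.084 ± 0.029 (SD, n = 2) for shRNA#4. NRCAM stood 2.93-fold above scramble with shRNA#2 and 3.08-fold above it with shRNA#4.

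**Figure D1:**
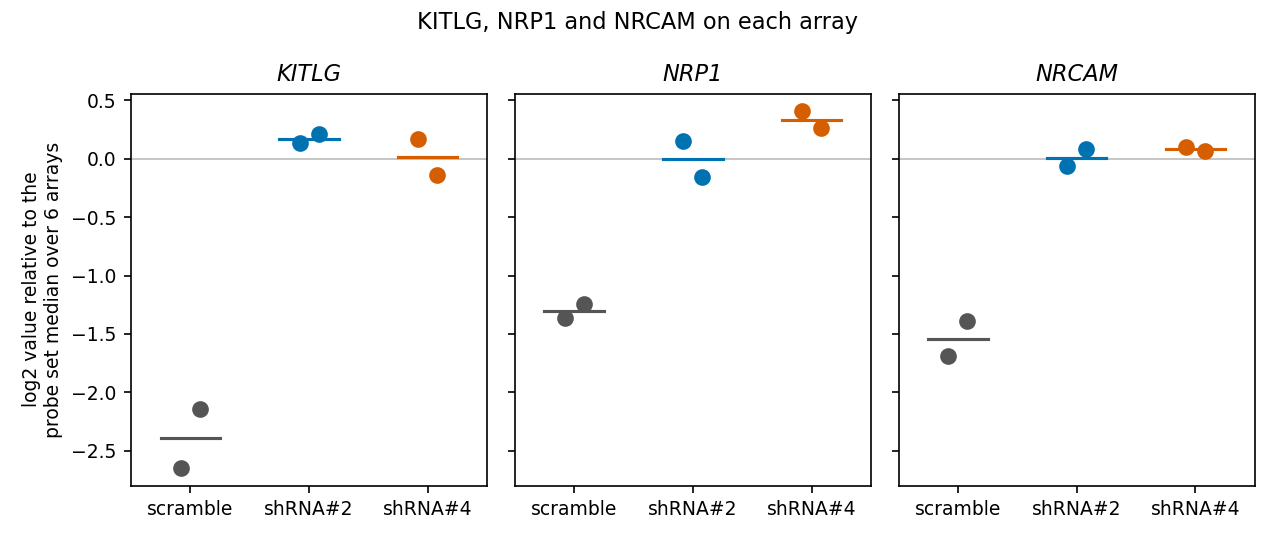
Log2 values of KITLG, NRP1 and NRCAM, relative to the probe set median over 6 arrays (y axis), by group (x axis). Points are single arrays and bars are group means. Scramble arrays lie between -2.65 and -1.25 and hairpin arrays between -0.16 and 0.41.

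In all 3 genes the 4 hairpin arrays lay above both scramble arrays, which held for 19.5% of the 14884 genes. The choice of the genes fixed this count. By the mean of both hairpins minus scramble, KITLG ranked 1, NRCAM 8 and NRP1 12 among the genes with such arrays. The values were 2.49, 1.59 and 1.47. HOXB9, 1 rank above NRP1, stood at 1.48, and PDGFRL, 1 rank below it, at 1.47, so the edge of the 12 largest rises fell between near-equal values. The comparisons of each hairpin with scramble share the 2 scramble arrays.

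The replicates of KITLG were unusually far apart in the control. Its scramble arrays differed by 0.51, and 0.343% of all genes had a larger difference between these arrays. Its shRNA#4 arrays differed by 0.30 (2.79% of genes larger) and its shRNA#2 arrays by 0.072 (46.1% larger). NRCAM differed by 0.30 between the scramble arrays, which 3.57% of genes exceeded, and NRP1 by 0.31 between the shRNA#2 arrays, which 1.96% exceeded. Without replicate 1 of scramble the difference for the mean of both hairpins was 2.23 in KITLG, 1.44 in NRCAM and 1.41 in NRP1. Without replicate 2 of scramble it was 2.74, 1.74 and 1.53.

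The genes were chosen for both hairpins standing far above the control, not by the difference between the hairpins, which could be tested. That choice leaves out genes high with 1 hairpin alone, so it limits how far the hairpins can differ in the 3 genes. The test is therefore not fully free of the choice. KITLG was 0.16 ± 0.18 (SE) higher with shRNA#2 than with shRNA#4, with a 95% interval from -0.27 to 0.59 (limma adjusted p = 0.683). NRCAM was lower with shRNA#2 by 0.075 ± 0.11, with an interval from -0.33 to 0.18 (limma adjusted p = 0.762). NRP1 was lower with shRNA#2 by 0.33 ± 0.11, with an interval from -0.61 to -0.059. For NRP1 the unadjusted limma p was 0.0247 and the adjusted p 0.112, so it did not pass the threshold of 0.05. None of the 3 genes was called in this comparison, in which 15.3% of all genes were (6.64% higher and 8.63% lower with shRNA#2). A miss does not show that the hairpins acted alike, since the intervals are wide against the differences, and that of NRP1 reaches down to 0.656-fold. In absolute size, 32.1% of genes differed more between the hairpins than KITLG, 12.04% more than NRP1 and 53.6% more than NRCAM.

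**Figure D2:**
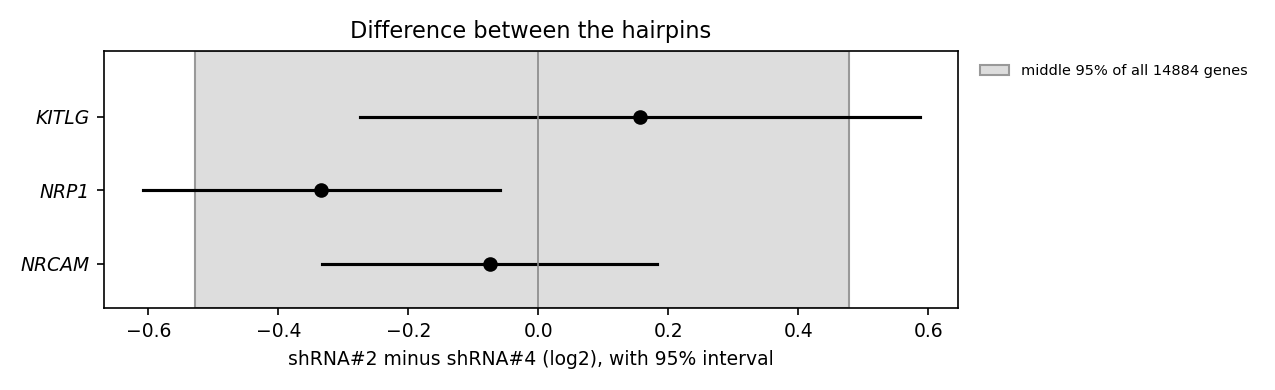
Difference between shRNA#2 and shRNA#4 on the log2 scale (x axis) for KITLG, NRP1 and NRCAM (y axis), with 95% intervals of the limma fit (n = 2 arrays per group). The grey band spans the middle 95% of all 14884 genes, from -0.53 to 0.48, and the 3 point values lie inside it.

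The receptor and co-receptors that these proteins work with were measured in part. KIT, the receptor of KITLG, read -0.042 and 0.47 on the scramble arrays, -0.045 and 0.079 with shRNA#2 and -0.055 and 0.042 with shRNA#4. Averaged over both hairpins its difference from scramble was -0.21 ± 0.14 (SE, limma adjusted p = 0.365), and a single scramble array stood apart from the others. The difference was not called in 5 of 6 fits that each left out 1 array. Without replicate 1 of scramble, the array that stood apart was the whole control, the difference was -0.46 and the limma adjusted p 0.0192. A fit without 1 array leaves 1 group with a single array, which is then assumed to vary like the other groups, here and in every such fit. NRP2, the paralog of NRP1, read -0.80 and -0.63 on the scramble arrays, -0.11 and 0.11 with shRNA#2 and 0.48 and 0.32 with shRNA#4. NRP2 rose by 0.91 ± 0.089 (1.88-fold, limma adjusted p = 0.00118). The order of its groups was that of NRP1, with scramble lowest and shRNA#4 highest and no overlap of arrays. UCHL1 and CPA6, of other families, had this order too, and its share among all genes was not counted. The difference of NRP2 between hairpins was -0.40 ± 0.10 and was not called (limma adjusted p = 0.0519).

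Of the A-type plexins that pair with neuropilins, PLXNA1 was at 0.13 ± 0.058, PLXNA2 at -0.22 ± 0.13, PLXNA3 at -0.13 ± 0.057 and PLXNA4 at 0.0021 ± 0.041 (SE) for both hairpins averaged against scramble. None of these 4 was called (limma adjusted p from 0.152 to 0.982). VEGFA was at -0.042 ± 0.057 and its receptors KDR and FLT1 at -0.026 ± 0.043 and 0.0062 ± 0.046, none of them called. In the L1 family, L1CAM read -0.094 and -0.11 on the scramble arrays, -0.036 and 0.036 with shRNA#2 and 0.24 and 0.19 with shRNA#4. L1CAM rose by 0.21 ± 0.045 (1.16-fold, limma adjusted p = 0.0179), a far smaller difference than that of NRCAM. Its call held in 3 of 6 fits that each left out 1 array, and it ended without either scramble array or without replicate 2 of shRNA#2 (adjusted p up to 0.0903). CHL1 was at -0.020 ± 0.041 and NFASC at -0.024 ± 0.050, and neither was called. The class 3 semaphorins, the ankyrins and GIPC1, which binds the tail of NRP1, were not analysed here.

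The wider pathways were examined in 7 lists, which named 294 genes beside the 3 described, 205 of them measured. With both hairpins averaged against scramble, 33 of the 205 rose and 30 fell, or 30.7%, where 25.4% of all 14884 genes were called (limma, adjusted p under 0.05), 14.8% as higher and 10.6% as lower. The median difference over the 205 was -0.0081, and over all genes 0.0028. No gene stands in more than 1 of these 7 lists.

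**Figure D3:**
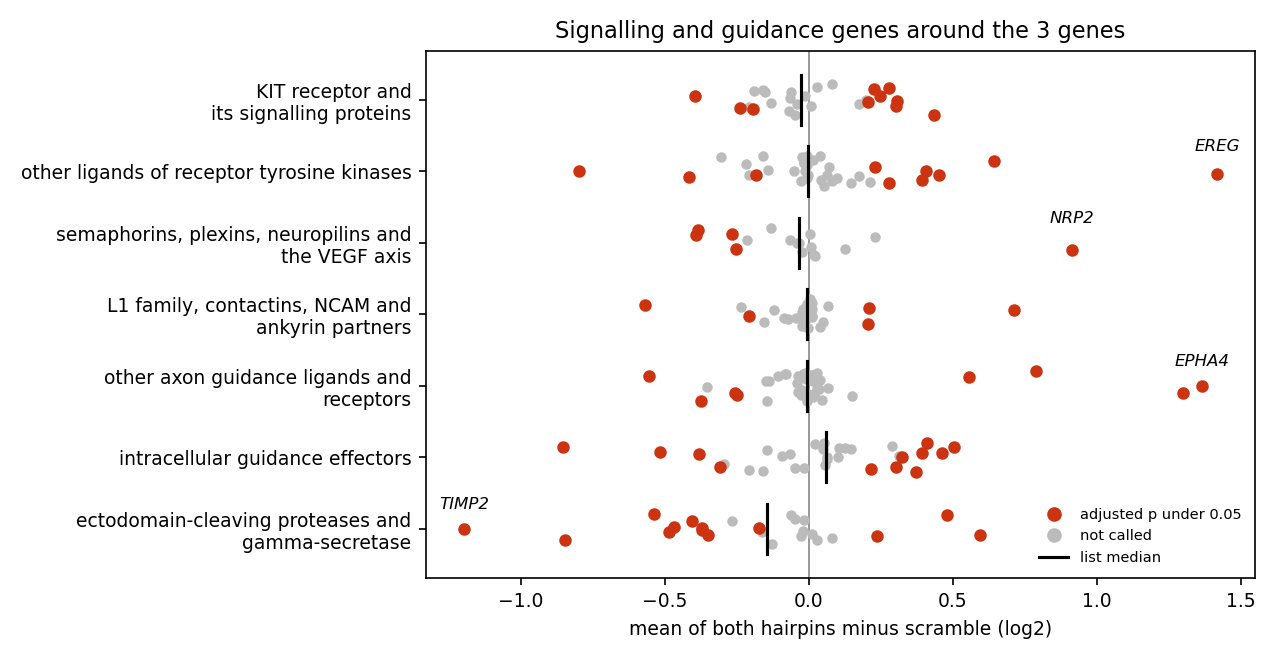
Mean of both hairpins minus scramble on the log2 scale (x axis) for the measured genes of 7 lists (y axis), without KITLG, NRP1 and NRCAM. Red points passed the limma test at an adjusted p under 0.05, grey points did not, and black bars are list medians, which lie between -0.15 and 0.058.

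Among 26 measured genes of the KIT receptor and its signalling proteins, 7 rose and 3 fell, with a median of -0.028. Together 38.5% were called, against 25.4% of all genes. SHC1, an adaptor recruited to activated receptors, rose by 0.44 ± 0.067 (1.35-fold), and the GTPase HRAS by 0.30 ± 0.047. SOCS1, a feedback inhibitor of cytokine signalling, rose by 0.31 ± 0.072 and the Src-family kinase YES1 by 0.28 ± 0.063. MAPK3, the kinase ERK1, fell by 0.39 ± 0.090, the kinase SRC by 0.24 ± 0.068 and the docking protein GAB1 by 0.19 ± 0.051. The calls of SHC1 and HRAS held without each array in turn, and those of the other 5 did not. The highest adjusted p was 0.122 for MAPK3 and YES1, 0.143 for SOCS1 and 0.221 for SRC, all without replicate 1 of scramble, and 0.193 for GAB1 without replicate 2 of scramble. The count of 10 was lower in every fit without 1 array, and so was the count over all genes. When all probe sets were tested singly the list's count was 3, and that over all genes was 3193, against 3784 in the main fit.

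Of 37 measured ligands of other receptor tyrosine kinases, the genes most like KITLG in role, 7 rose and 3 fell, with a median of -0.0016. Their called share of 27.0% was near the 25.4% of all genes. EREG (epiregulin), a ligand of the EGF receptor, read -1.49 and -0.98 on the scramble arrays, -0.19 and 0.19 with shRNA#2 and 0.28 and 0.45 with shRNA#4. EREG rose by 1.42 ± 0.17 (2.67-fold, limma adjusted p = 0.00212), the largest change in this list. FGF9 rose by 0.64 ± 0.048, the heparin-binding factor MDK by 0.45 ± 0.071 and PDGFC by 0.41 ± 0.045. For PDGFC the mean joins 0.68 with shRNA#2 and 0.13 with shRNA#4. PROS1, an anticoagulant protein that also activates TAM receptor kinases, fell by 0.80 ± 0.067, IL34, a ligand of the CSF1 receptor, by 0.42 ± 0.12 and PDGFB by 0.18 ± 0.048. The calls of EREG, FGF9, MDK, PDGFC and PROS1 held without each array in turn. Those of IL34 and PDGFB ended, with adjusted p-values up to 0.251 and 0.199 without replicate 1 of scramble. The count of 10 ligands was lower in every fit without 1 array, as was the count over all genes.

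The list of semaphorins, plexins, neuropilins and the VEGF axis had 17 measured genes, and no semaphorin of any class was among them. NRP2 was the single gene of the 17 that rose, while 4 fell, and the median was -0.034. Calls made up 29.4% of the list, against 25.4% of all genes. Of the semaphorin receptors, PLXNB2 fell by 0.39 ± 0.057, PLXNC1 by 0.38 ± 0.066 and PLXNB1 by 0.27 ± 0.041. For PLXNC1 the mean joins -0.59 with shRNA#2 and -0.17 with shRNA#4. PGF (placental growth factor), a ligand of FLT1 and of neuropilins, fell by 0.25 ± 0.062. The call of PLXNC1 ended without replicate 2 of scramble (adjusted p = 0.0522), and that of PGF held in 1 of 6 fits without 1 array (up to 0.170, without replicate 1 of scramble).

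Of 29 measured genes of the L1 family, contactins, NCAM and their partners, 3 rose and 2 fell, with a median of -0.0079. This was a called share of 17.2%, below the 25.4% of all genes. Beside L1CAM, the adhesion molecule CADM1 rose by 0.71 ± 0.12 (1.64-fold) and CNTNAP1 by 0.21 ± 0.057. CNTN4, a contactin anchored in the membrane by a lipid, fell by 0.57 ± 0.080, and SDCBP (syntenin) by 0.21 ± 0.050. The fall of CNTN4 was unequal, with -0.19 for shRNA#2 and -0.95 for shRNA#4. CNTNAP1 was at 0.33 with shRNA#2 and 0.084 with shRNA#4, and its shRNA#4 arrays overlapped the scramble arrays. The calls of CNTNAP1 and SDCBP each held in 1 of 6 fits without 1 array (up to 0.185 and 0.156, without replicate 1 of scramble), and that of CADM1 in 5 (adjusted p = 0.05004 without replicate 2 of scramble). The count of 5 was lower in every fit without 1 array except that without replicate 1 of shRNA#4. The count over all genes was lower in every such fit.

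Of 40 measured genes of the ephrin, Slit, netrin and related guidance systems, 4 rose and 4 fell, with a median of -0.0050. The rises included large ones in receptors and a ligand of the ephrin system, which signals by contact between neighbouring cells. EPHA4 read -0.88 and -0.76 on the scramble arrays, 0.048 and -0.048 with shRNA#2 and 1.25 and 0.95 with shRNA#4. EPHA4 rose by 1.37 ± 0.091 (2.58-fold, limma adjusted p = 0.000443). Its groups did not overlap, and it was 1.10 ± 0.11 lower with shRNA#2 than with shRNA#4 (limma adjusted p = 0.00304).

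EFNB2, a transmembrane ephrin ligand, read -0.84 and -1.10 on the scramble arrays, 0.69 and 0.63 with shRNA#2 and 0.097 and -0.097 with shRNA#4. EFNB2 rose by 1.30 ± 0.090 (2.46-fold, limma adjusted p = 0.000477). It was highest with shRNA#2, the reverse of the order in EPHA4, by 0.66 ± 0.10 (limma adjusted p = 0.0112), a call that ended without replicate 1 or 2 of shRNA#2 or replicate 2 of shRNA#4 (up to 0.0714). EPHA2 rose by 0.79 ± 0.070 (1.73-fold), and FLRT3, an adhesion protein that binds UNC5 receptors, by 0.56 ± 0.083. These rises were unequal, with shRNA#2 minus shRNA#4 at -0.49 for EPHA2 and -0.76 for FLRT3. The secreted netrin NTN4 fell by 0.56 ± 0.074, the netrin receptor UNC5B by 0.375 ± 0.097, EFNA2 by 0.26 ± 0.070 and the netrin and RGM receptor NEO1 by 0.25 ± 0.050. For NEO1 the mean hides opposite values, 0.17 with shRNA#2 and -0.67 with shRNA#4. The calls of UNC5B, EFNA2 and NEO1 for the mean of both hairpins ended without replicate 1 of scramble, among others, with adjusted p-values over all omissions up to 0.156, 0.221 and 0.0864.

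Among 32 measured intracellular guidance effectors, which relay these receptors to the cytoskeleton, 8 rose and 4 fell, with a median of 0.058. That is 37.5% called, against 25.4% of all genes. One of the rises, DOCK1, stood below scramble with shRNA#2 and above it with shRNA#4. RND3, a GTPase that opposes RHOA signalling, rose by 0.50 ± 0.059 and DPYSL2 (CRMP2), a mediator of semaphorin signalling, by 0.46 ± 0.073. Here shRNA#2 minus shRNA#4 was -0.55 for RND3 and 0.35 for DPYSL2. The actin-severing protein CFL2 rose by 0.41 ± 0.075 and the kinase GSK3B by 0.39 ± 0.076. NCK2, an adaptor between receptors and actin, fell by 0.85 ± 0.072, SRGAP1, which acts downstream of Slit and ROBO, by 0.52 ± 0.049, the cofilin kinase LIMK2 by 0.38 ± 0.060 and SRGAP3 by 0.31 ± 0.062. Without replicate 1 of scramble the call of GSK3B ended (adjusted p = 0.0542), and without replicate 2 of scramble that of SRGAP3 (0.0834).

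Of 24 measured ectodomain-cleaving proteases, their inhibitors and gamma-secretase subunits, 3 rose and 10 fell, with a median of -0.15. The called share was 54.2%, against 25.4% of all genes. ADAM17, a protease that releases KITLG and EREG from the membrane, read -0.41 and -0.42 on the scramble arrays, 0.10 and -0.050 with shRNA#2 and 0.14 and 0.050 with shRNA#4. ADAM17 rose by 0.48 ± 0.059 (1.39-fold, limma adjusted p = 0.00246), ADAM19 by 0.59 ± 0.058 and PSEN2 by 0.24 ± 0.066. The metalloprotease inhibitor TIMP2 fell by 1.20 ± 0.097 (2.30-fold) and TIMP3, an inhibitor of ADAM17, by 0.54 ± 0.097. The proprotein convertases PCSK5 and PCSK6 fell by 0.85 ± 0.066 and 0.485 ± 0.057. The call of PSEN2 held in 1 of 6 fits without 1 array (adjusted p up to 0.223, without replicate 2 of scramble), and the calls of the other 6 held in all 6. The list's count of 13 was lower in every fit without 1 array and lowest without replicate 1 of scramble, as was the count over all genes. Among the 10 falls is ADAM9, which stood above scramble with shRNA#2 and below it with shRNA#4. The values are transcript levels, and cleavage was not measured.

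**Figure D4:**
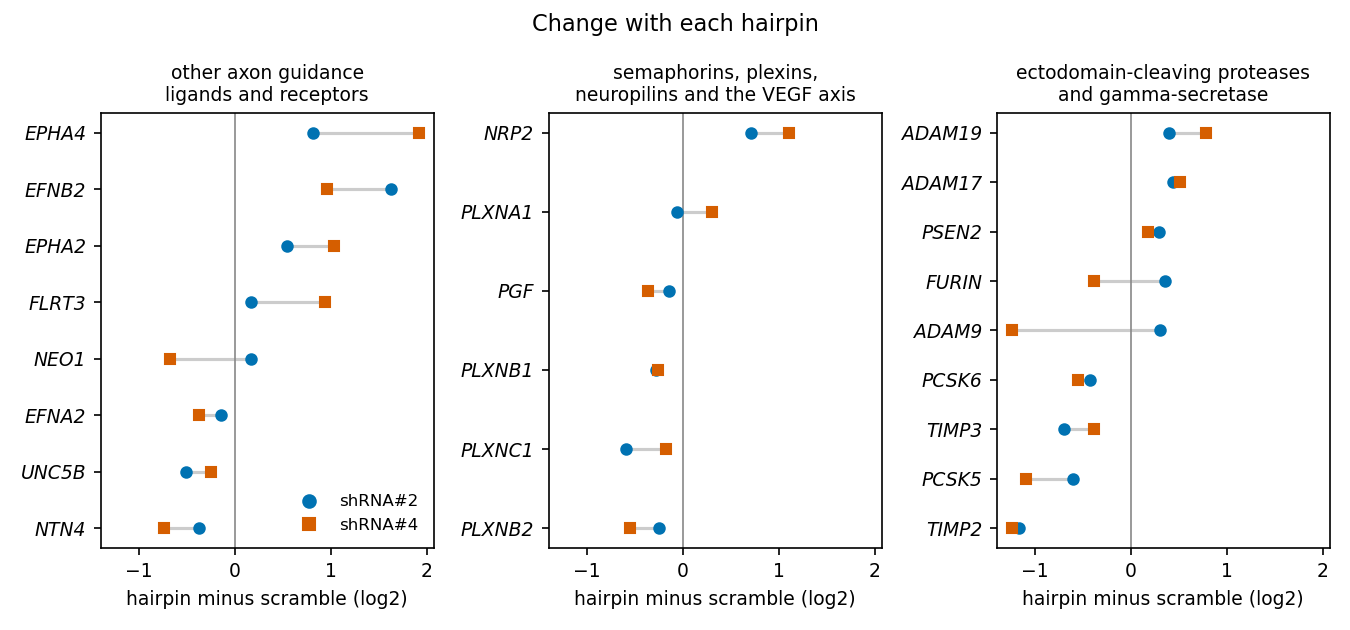
Change of each hairpin against scramble on the log2 scale (x axis) for the named genes of 3 lists (y axis). Blue circles are shRNA#2 and orange squares shRNA#4, and both share the same 2 scramble arrays. EPHA4 reaches 0.82 and 1.92, NRP2 0.72 and 1.11, and ADAM9 lies at 0.30 and -1.24.

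Between the hairpins, 38 of the 205 genes of these lists were called (18.5%, against 15.3% of all genes). The KIT signalling list had 2 of 26 (7.69%), AKT2 and PDPK1. With a replicate block that count was 5, and 2637 of all genes were called. Both counts were lower in each fit without 1 hairpin array than in the main fit. The guidance effectors had 12 of 32 (37.5%). DOCK1, an activator of RAC1, was at -0.36 with shRNA#2 and 0.78 with shRNA#4, DPYSL3 at -0.25 and 0.54, and the RAC1 exchange factor TIAM1 at -0.25 and 0.46. The count of 12 was lower in each fit without 1 hairpin array, and the count over all genes was lower in the same fits. The call of DPYSL3 ended without replicate 1 of shRNA#2 (limma adjusted p = 0.0514). In the protease list ADAM9 read 0.29 and 0.32 with shRNA#2 and -1.09 and -1.39 with shRNA#4, against -0.0080 and 0.0080 on the scramble arrays. The difference of 1.54 ± 0.096 was the largest between the hairpins in the 7 lists (limma adjusted p = 0.00154).

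Markers of other cells were read from 5 lists, in the comparison of both hairpins averaged with scramble, in which 25.4% of all genes were called (14.8% higher and 10.6% lower). FLT1, KDR and MITF stand both in these and in the lists above. Of 11 measured markers of epithelium and enterocytes 7 fell and 0 rose, with the lactase LCT at -2.13 ± 0.082 (SE) and the aminopeptidase ANPEP at -1.23 ± 0.096, and their median per array lay at 0.12 and 0.23 in scramble and between -0.079 and -0.0070 with hairpins. Of 10 markers of neurons and glia 1 rose, UCHL1, by 1.44 ± 0.084 (2.71-fold), and the medians per array of that list lay between -0.050 and 0.029. Of 11 mast cell and melanocyte markers 0 rose and PMEL fell, by 0.34 ± 0.082. Of 9 endothelial markers ESAM rose, by 0.24 ± 0.061, with -0.15 for shRNA#2 and 0.63 for shRNA#4. Of 6 fibroblast and smooth muscle markers TAGLN and VIM rose, by 0.44 ± 0.055 and 0.28 ± 0.048, and THY1 fell by 0.20 ± 0.044. For TAGLN the mean joins -0.23 with shRNA#2 and 1.11 with shRNA#4. The falls of EPCAM and CDX2, named after their values were seen, ended in 6 and 4 of the 6 fits without 1 array, and those of the other 5 epithelial markers held in all 6. The calls of PMEL, ESAM, VIM and THY1 ended without replicate 1 of scramble, and all but that of VIM ended without other single arrays too. Their highest adjusted p-values were 0.140, 0.149, 0.0572 and 0.124. In such bulk samples, fewer cells of a type and less RNA per cell cannot be told apart, and the part of these markers in the values of KITLG, NRP1 and NRCAM was not tested.

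Likeness of pattern was measured as the root mean square difference of the 6 array values, over 11913 other protein-coding genes. The closest to KITLG were complement component C5 (0.29), TMEM47 (0.42), the collagen prolyl hydroxylase P3H2 (0.48), SAMD5 (0.53) and the chaperone HSPA4L (0.63). The closest to NRP1 were ULBP1, a ligand of the NKG2D receptor (0.17), the ubiquitin hydrolase UCHL1 (0.18), the carboxypeptidase CPA6 (0.18), the extracellular matrix protein FREM2 (0.20) and APOO (0.20). The closest to NRCAM were SAMD5 (0.15), asparagine synthetase ASNS (0.16), UCHL1 (0.18), the crypt stem cell receptor LGR5 (0.20) and PSAT1 of serine synthesis (0.21). By this measure UCHL1 was near both NRP1 and NRCAM, and SAMD5 near both KITLG and NRCAM. By Pearson r among 581 genes with a range of at least 1, neither was among the closest 5 of any of the 3 genes, and of the genes named here 0 recurred for KITLG, 1 for NRP1 (APOO) and 1 for NRCAM (ASNS). NRP1 and NRCAM differed from each other by 0.25, with 18 coding genes closer to NRP1 and 8 closer to NRCAM. KITLG differed from NRCAM by 0.51, with 100 coding genes closer to NRCAM and 3 closer to KITLG. It differed from NRP1 by 0.68, with 1606 closer to NRP1 and 10 closer to KITLG. The 6 arrays share the low scramble values, so any gene that is low in scramble alone by a similar amount scores as alike.

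**Figure D5:**
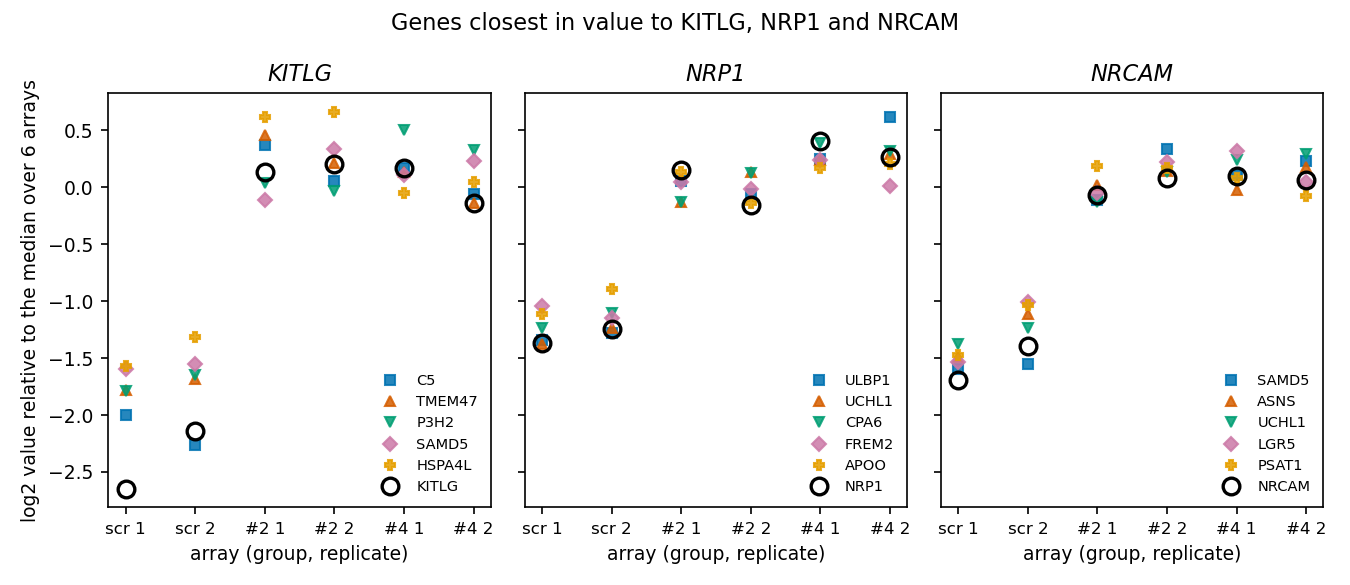
Log2 values relative to the median over 6 arrays (y axis) on each array (x axis, group and replicate) for KITLG, NRP1 and NRCAM (open circles) and the 5 coding genes with the smallest root mean square difference from each. KITLG lies at -2.65 and -2.14 on the scramble arrays, and C5, at a root mean square difference of 0.29, is the closest gene to it.

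The genes next to the 3 on their chromosomes did not share the size of the difference. On chromosome 12, TMTC3 and CEP290, the measured neighbours of KITLG at lower coordinates, rose by 0.40 ± 0.053 and 0.355 ± 0.055 (limma adjusted p = 0.00312 and 0.00565). On its other side LINC02458 was at -0.047 ± 0.044 and DUSP6, a phosphatase of ERK kinases, at 0.18 ± 0.13, neither called. On chromosome 10, the motor protein gene KIF5B near NRP1 rose by 0.43 ± 0.053, while EPC1 (-0.12 ± 0.051), LINC00838 (0.0021 ± 0.067) and PARD3 (0.16 ± 0.052) were not called. On chromosome 7, PNPLA8 near NRCAM fell by 0.40 ± 0.073 (-0.73 with shRNA#2 and -0.071 with shRNA#4), a call that ended without replicate 2 of scramble (adjusted p = 0.0528). DLD (0.14 ± 0.090), THAP5 (-0.087 ± 0.093) and SLC26A4-AS1 (-0.013 ± 0.041) were not called. Between 2 and 19 annotated genes lay between a neighbour and its gene. For the farther neighbour on each side, this count includes the nearer measured one. In this comparison 25.4% of all genes were called, and 4 of these 12 neighbours were.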

How the data were processed

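RNA of 6 Caco-2 cultures was hybridised to Affymetrix arrays, 1 per sample, after labelling from 100 ng of RNA, per the labels' protocols. The deposited log2 values were made by the authors, and each probe set is relative to its median over the 6 arrays (within 1e-06 of 0), as read from the values. The sources used here name no normalization, software or log base. Depth does not apply, and the number of arrays limits the precision. Of 48144 probe sets, 16098 had 1 symbol, 0 several and 32046 none. Entrez IDs were matched to RefSeq symbols, 0 were updated, and the probe sets of 779 genes were averaged.

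All genes were fitted in limma 3.58.1 under R 4.3.3 with 1 mean per group, an untrended eBayes step (degrees of freedom: 3 residual, 3.09 prior), and p-values were adjusted over 14884 genes by Benjamini-Hochberg, called at an adjusted p under 0.05. The fit was tested on simulated data for the comparison of hairpins only, with few genes changed and independent noise. The comparison with scramble was not simulated. Errors are SE of this fit with n = 2 arrays per group unless SD is given. The members and lists were chosen with earlier results of these data known. Named were the 3 genes and their partners, up to 4 rises and 4 falls per list and the 3 largest differences between hairpins, the 5 closest genes and 2 measured neighbours on each side. Fits without 1 array assume that a lone array varies like the other groups. Alternatives were other normalizations, priors, weights, probe set choices, sample choices, a replicate block and a stricter threshold. Plots used Python 3.11.15 (pandas 2.3.3, matplotlib 3.10.9).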

Additional observations from a re-analysis of the deposited data

Results flagged for a closer look

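The following genes were set apart, among the named genes only, because the change against scramble differed between the hairpins. The test was of that difference (limma, adjusted p under 0.05), a comparison in which 15.3% of all genes were called. List genes called in it but not named, and so left out here, were GAS6, ANGPT2, RND1, PAK2, ABL2, EVL, NCK1, ARHGEF12, ADAM10 and ADAM15. Values are shRNA#2 minus shRNA#4 on the log2 scale, with 2 arrays per group, and no explanation was tested. KITLG, NRP1 and NRCAM are not among them. Of the 37 calls, 15 held in all 6 fits without 1 array, 20 ended in some and 2 held in none. The 2 were L1CAM (adjusted p from 0.0686 to 0.209) and PDPK1 (0.0653 to 0.189). The call of NTN4 held in 1 of the 6, and those of ADAM19, AKT2, DLD, DPYSL2, EZR, PLXNB2 and SRGAP1 in 2. Those held in all 6 were ADAM9, CNTN4, DOCK1, EPHA4, ESAM, FLRT3, FURIN, NEO1, PARD3, PDGFC, PNPLA8, PROS1, RND3, TAGLN and TIAM1. Groups of 2 arrays are too small for a test of outlying samples.

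Higher with shRNA#2 among the adhesion and guidance genes were NEO1 (0.84), CNTN4 (0.77), EFNB2 (0.66), NTN4 (0.37), DPYSL2 (0.35), GLDN (0.34) and PLXNB2 (0.30). Higher with shRNA#4 were DOCK1 (-1.14), EPHA4 (-1.10), DPYSL3 (-0.80), FLRT3 (-0.76), TIAM1 (-0.71), RND3 (-0.55), EPHA2 (-0.49), PLXNC1 (-0.42), EZR (-0.39), PLXNA1 (-0.36), SRGAP1 (-0.27) and L1CAM (-0.21).

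Among signalling genes and proteases, ADAM9 (1.54), FURIN (0.74), PROS1 (0.61), PDGFC (0.55), PCSK5 (0.49) and AKT2 (0.26) were higher with shRNA#2. FGF18 (-0.50), ADAM19 (-0.38) and PDPK1 (-0.22) were lower with it. Of the cell type markers, TAGLN (-1.34), SI (-0.93), ESAM (-0.78) and VIM (-0.28) were lower with shRNA#2. Of the genome neighbours, DUSP6 (0.81) beside KITLG and PARD3 (0.61) beside NRP1 were higher with shRNA#2, and PNPLA8 (-0.66) and DLD (-0.45) beside NRCAM and TMTC3 (-0.44) beside KITLG were lower.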

How the results depend on the processing

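The tests of KITLG, NRP1 and NRCAM between hairpins kept direction and stayed above the threshold in every alternative run, with limma adjusted p from 0.310 to 0.995, 0.0559 to 0.364 and 0.582 to 0.998. Leaving out 1 array gave 0.0050 to 0.31 for KITLG, -0.49 to -0.18 for NRP1 and -0.15 to -0.0025 for NRCAM. Against scramble, quantile normalization gave 2.04, 1.28 and 1.34.

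Counts of called genes moved more, and the cause was not tested. Between hairpins the KIT signalling list had 2, but 5 with a replicate block, 4 after quantile normalization and 1 with a robust prior, with the most variable probe set per gene or with probe sets tested singly. Testing probe sets singly also gave 3 for this list and 6 for the ligands against scramble. At an adjusted p under 0.01, 2158 of all genes were called against scramble and 769 between hairpins. Against scramble the KIT list then had 2, the ligands 5, the L1 list 2, the other guidance list 5, the effectors 6 and the proteases 8. Between hairpins these lists had 0, 2, 1, 3, 4 and 3, and the semaphorin list 0.

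Leaving out 1 array gave 2477 to 3358 of all genes against scramble, 3 to 7 in the KIT list, 5 to 9 ligands, 2 to 5 in the L1 list and 7 to 11 proteases. Between hairpins it gave 761 (without replicate 1 of shRNA#2) to 2166 of all genes, 0 to 2 in the KIT list, 2 to 4 ligands, 0 to 3 in the semaphorin list, 1 to 3 in the L1 list, 3 to 5 in the other guidance list, 3 to 11 effectors and 3 to 9 proteases. By Pearson r among 581 genes with a range of at least 1, 0 of the 5 genes named as closest to KITLG were again among the closest 5, 1 for NRP1 and 1 for NRCAM.

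The groups share replicate numbers, with 2 pairs per comparison and no label for what a number marks. Differences between replicates correlated across 14884 genes at 0.179, 0.119 and 0.199 between groups. With the replicate block 4160 genes were called against scramble and 2637 between hairpins, and the adjusted p between hairpins was 0.674 for KITLG, 0.0903 for NRP1 and 0.679 for NRCAM. The block ended the calls of EFNA2 and PSEN2 against scramble (limma adjusted p = 0.0552 and 0.0557) and of L1CAM between hairpins (0.0555), and no other call of a named gene. A filter on dim probes could not be run on centred values, and the fit of only the arrays compared gave no value for both hairpins averaged.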
